A study of Mus musculus with 2 samples.

Results

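Some barcodes of a mouse spleen natural killer (NK) cell library carried NK transcripts but almost no messenger RNA for ribosomal proteins. The library held 16384 barcodes, of which 15742 had 500 to 6000 genes and at most 10% mitochondrial counts of unique molecular identifiers (UMIs). Of these, 11692 carried exactly 1 of the 3 lipid tags used to mark cells, and 9529 had a UMI of Klre1, Klrb1c or Ncr1, which encode NK receptors, and none of Trac or Cd79a, which mark T and B cells. The ribosome-poor barcodes were the 707 of these 9529 in which ribosomal protein genes made up less than 7% of gene UMIs. Members were thus chosen by their ribosomal share and gate genes, which are given below as descriptions. They were compared with 7914 ribosome-rich barcodes at 12% or more, and the 908 barcodes between those bounds formed a middle class.

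The study profiled NK cells from the spleens of wild-type mice, depleted of other cell types by negative magnetic selection, with a droplet 3′ RNA kit (10x Genomics v3.1). Its title names Kir6.1, the potassium channel subunit encoded by Kcnj8. The labels give no strain, age or sex and record no treatment, and they leave unsaid which mouse each tag marks. Of 2 samples in the labels, both wild-type, 1 was analysed here and the other was not.

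Ribosomal protein mRNAs are short, abundant and held in the cytoplasm, where they are translated. Newly made transcripts of long genes carry long introns while they are in the nucleus, and a few noncoding RNAs such as Malat1 and Neat1 stay there. The comparison was read along this line, as nuclear against cytoplasmic RNA, and whether any of these barcodes came from nuclei or broken cells was not tested.

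Whole-library facts that bear on the comparison were few. Summed non-ribosomal UMIs per tag were 279870 to 601197 in the ribosome-poor class and 10223452 to 13408538 in the ribosome-rich class. The 3 tags served as replicates of 1 library and as a block in the test. The p-values therefore measure the spread between tags of the class difference, which may be technical, and not that of the tag levels. The test also borrows spread across genes, so a gene with uneven tags can still pass. Levels are given as CPM, in which counts are scaled to a fixed total of non-ribosomal gene UMIs per sum, so that the ribosomal share cannot push other genes up or down. Barcodes over several tag bounds, 3540 in all, were left out, and no further doublet removal was run.

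Ribosome-poor barcodes were found under every tag. They made up 219 of 2971 gated barcodes of tag 1 (7.37%), 318 of 3580 of tag 2 (8.88%) and 170 of 2978 of tag 3 (5.71%), a mean of 7.32% ± 1.59 (SD, n = 3 tags). The exact 95% binomial intervals were 6.46 to 8.37%, 7.97 to 9.86% and 4.90 to 6.60%, which cover counting error only. The members' median ribosomal share was 2.41% ± 0.08 (SD of 3 tag medians), against 17.3% ± 0.33 in ribosome-rich barcodes. These shares chose the classes and are given as a description. The distribution had a separate peak between 1 and 3%, with 225 barcodes from 1 to 2%, and a low stretch around the bound, with 42 barcodes from 6 to 7% and 45 from 7 to 8%.

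**Figure D1:**
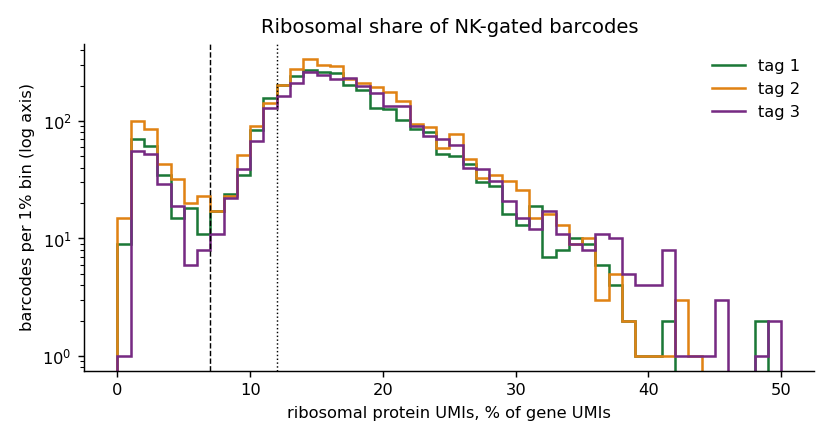
Number of NK-gated barcodes (log axis) in each 1% bin of ribosomal protein UMIs as a percent of gene UMIs, with 1 line per tag. The dashed line marks the 7% bound of the ribosome-poor class and the dotted line the 12% bound of the ribosome-rich class; all 3 tags show a small peak at 1 to 3% apart from the main one.

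Barcodes on either side of the bound were close in the share of UMIs from long genes, but not in every readout. UMIs of genes spanning over 100 kb made up a median of 25.04% of non-ribosomal UMIs in the 6 to 7% bin and 22.4% in the 7 to 8% bin. The same share was 41.1% in the 25 barcodes below 1% and 17.9% in the 863 barcodes from 8 to 12%. From the 6 to 7% bin to the 7 to 8% bin, Gzma, the granzyme A gene, went from 3551 to 6198 CPM. The proposed markers Kcnq5 and Fgf13 went from 1538 to 925 and from 644 to 262 CPM. The median Malat1 share was 4.49% and 4.34% of non-ribosomal UMIs in those bins. Across the 707 ribosome-poor barcodes the ribosomal share and the long-gene share had a Spearman correlation of -0.66, against -0.05 across the ribosome-rich barcodes, as a description of barcodes that share a library and a depth range. Malat1, the nuclear RNA among the proposed markers, did not follow the long genes within the class. Its share had a Spearman correlation of 0.13 with the ribosomal share and -0.41 with the long-gene share over the same 707 barcodes.

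The proposed markers were all higher by mean level in the ribosome-poor class, and since they helped to propose it they were not tested. Malat1 (chr19:5795690-5802672 of GRCm38, minus strand), a nuclear noncoding RNA, stood at 46283, 52109 and 65770 CPM in the ribosome-poor sums of tags 1, 2 and 3. In the ribosome-rich sums it stood at 29154, 30461 and 29561 CPM. The middle class lay between these levels with a mean of 44985 CPM. Kcnq5 (chr1:21398403-21961942, minus strand), a voltage-gated potassium channel gene of 564 kb, had 1853, 2031 and 1226 CPM against 865, 788 and 774. Fgf13 (chrX:59062145-59568071, minus strand), a gene of 506 kb for an intracellular fibroblast growth factor homologous factor, had 856, 655 and 529 CPM against 253, 247 and 250. For Kcnq5 and Fgf13 the middle class, at means of 846 and 237 CPM, lay at the ribosome-rich level. The annotation places 4 other genes within the spans of both Kcnq5 and Fgf13 and 2 at Malat1, and whether counting used the strand is not stated, so some reads may belong to those.

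Ribosome-poor barcodes held fewer RNA molecules than ribosome-rich ones but a like amount of lipid tag. Their median was 1405 ± 125 gene UMIs (SD of 3 tag medians) and 888 ± 54.4 genes, against 4370 ± 304 UMIs and 1996 ± 88.2 genes. The median count of the barcode's own tag was 1116 ± 79.1 against 1167 ± 128, and the tag values of the classes overlapped. Mitochondrially encoded genes made up 2.80% ± 0.33 of gene UMIs against 1.35% ± 0.03, and 60.1% of the ribosome-poor barcodes were above the 95th percentile of the ribosome-rich ones. Detection of the gate genes moved with this depth. All 3 gate genes were seen in 34.7% of ribosome-poor barcodes and 85.5% of ribosome-rich barcodes. In CPM, Klre1 stood at 863 ± 114 against 1282 ± 70.9, Ncr1 at 697 ± 119 against 968 ± 53.7 and Klrb1c at 1050.0 ± 127 against 1135 ± 61.2 (SD, n = 3 tags), without a test because they set the gate.

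The NK label was checked against other NK genes. Klrk1, which encodes the activating receptor NKG2D, had 1533 CPM over the 707 ribosome-poor NK barcodes and 204 CPM over 176 ribosome-poor barcodes with 1 tag but no gate gene UMI. A Klrk1 UMI was seen in 78.5% and 26.1% of those barcodes, at median depths of 1385 and 1712 non-ribosomal UMIs (1711.5 before rounding). The NK genes Gzma, Prf1, Klrk1, Eomes, Nkg7, Tyrobp and Klrd1 together had 5265 against 1388 CPM. Over the ribosome-rich NK barcodes that sum was 18899 CPM. Outside that list of NK genes, Skap1, an adaptor in integrin activation, had 2066 against 250 CPM. Prkch, a protein kinase C gene also outside it, had 1226 against 272 CPM. Gzma, the gene of granzyme A, had 1538 against 301 CPM, and its UMIs were seen in 69.9% and 53.4%, so a Gzma UMI alone did not mark the gated barcodes. Tyrobp, an adaptor gene that myeloid cells also express, went the other way, with 542 against 601 CPM and a UMI in 43.7% and 46.6%. The gate itself helps to set this comparison, which was not tested.

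Long genes filled a larger part of ribosome-poor barcodes. Genes over 100 kb took a median of 32.9%, 32.4% and 32.1% of non-ribosomal UMIs in tags 1, 2 and 3, against 16.2%, 16.6% and 16.2% in ribosome-rich barcodes. Of the ribosome-poor barcodes, 93.6% exceeded the 95th percentile of the ribosome-rich ones, which was 21.6%. Nuclear genes under 5 kb moved the other way, with 4.92% ± 0.09 of non-ribosomal UMIs against 19.2% ± 0.29 (SD of 3 tag medians). The plot of long-gene share against depth shows that this held for ribosome-poor barcodes at depths that ribosome-rich ones also reached.

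**Figure D2:**
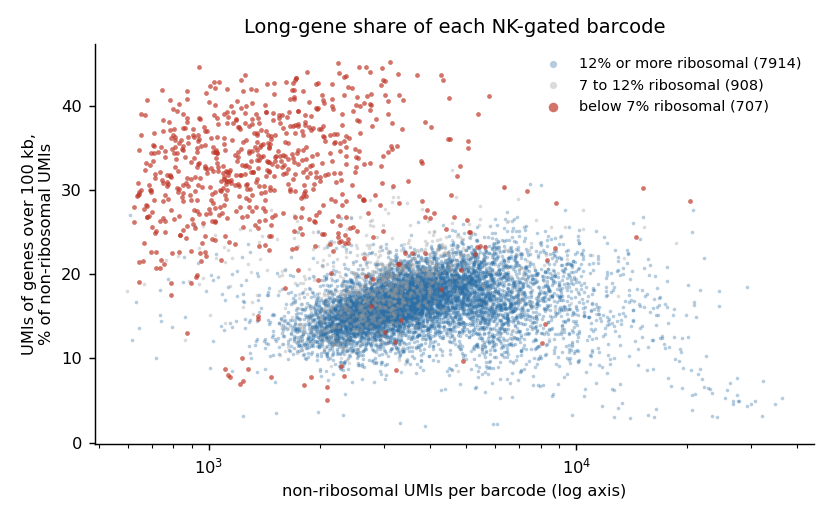
Each point is 1 NK-gated barcode, with its non-ribosomal UMIs on a log axis and the percent of those UMIs from genes spanning over 100 kb, coloured by class. The ribosome-poor barcodes lie mostly between 20 and 45%, above most ribosome-rich barcodes.

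Counted per barcode with no scaling, the ends of the span range parted. Genes of 200 kb or more gave a mean of 234 ± 14.6 UMIs per ribosome-poor barcode and 269 ± 18.8 per ribosome-rich barcode (SD, n = 3 tags), or 87.2% of the ribosome-rich number. By tag that percentage was 92.5, 84.7 and 84.6. Genes of 100 to 200 kb reached 71.6% of the ribosome-rich number, genes of 50 to 100 kb 59.1%, genes of 20 to 50 kb 38.9% and genes of 5 to 20 kb 26.2%. Nuclear genes under 5 kb gave 136 ± 9.91 UMIs against 843 ± 29.0, or 16.2%. Malat1 reached 74.0%, mitochondrially encoded genes 66.9%, and the ribosomal protein genes that set the class 4.84%. The order of the percentages followed the order of the span classes without exception under all 3 tags.

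Gene by gene, 13196 non-ribosomal genes were tested with edgeR's quasi-likelihood test, blocked by tag, at a Benjamini-Hochberg adjusted p of 0.05. In ribosome-poor barcodes 2020 genes were higher (15.3% of those tested) and 2946 lower (22.3%), so that 37.6% were called in either direction. At least 2-fold, 647 were higher (4.9%) and 2302 lower (17.4%). The median log2 fold, ribosome-poor against ribosome-rich, was -0.07 over all genes tested. Without TMM factors, which scale each sum so that most genes balance, the median rose by 0.19 to 0.11, and 2648 genes were higher against 2457 lower. Directions below are relative to that scaling, and the genes and lists for which it changes a direction are named in the closing section.

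The fold followed genomic span. Among 1670 tested genes under 5 kb the median log2 fold was -1.21, with 2.99% higher and 41.7% lower. Among 4261 genes of 5 to 20 kb it was -0.70, and among 3584 genes of 20 to 50 kb it was -0.04. It turned positive at 50 to 100 kb (0.44, 1884 genes) and was 0.70 for 1118 genes of 100 to 200 kb. Among 673 genes of 200 kb or more it was 0.96, with 59.0% higher and 0.743% lower. Across genes, which are not independent replicates, the Spearman correlation of fold with span was 0.54, against 0.38 with the length of the longest transcript and 0.27 with its number of exons. For the 4111 genes with a mean of at least 50 CPM the correlation with span was 0.78. When classes were limited to 500 to 2000 non-ribosomal UMIs, the medians were -2.25 under 5 kb and 1.34 at 200 kb or more. With limits of 2000 to 6000 they were -1.34 and 0.89.

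**Figure D3:**
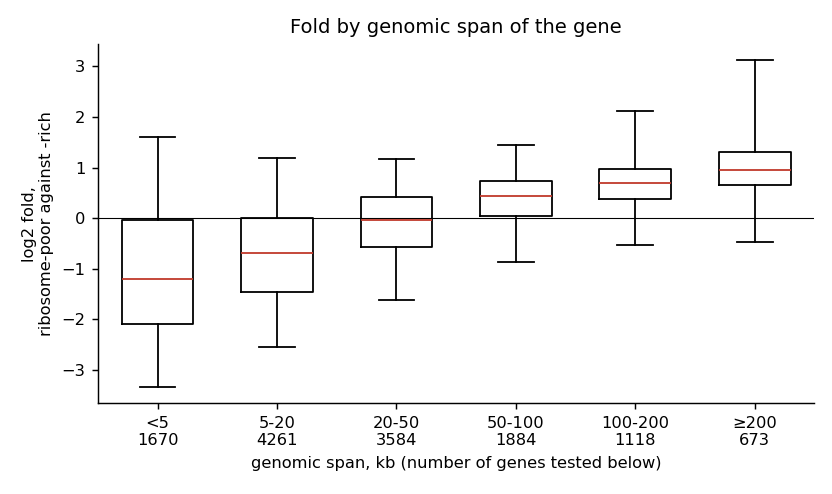
Log2 fold of ribosome-poor against ribosome-rich barcodes for the genes in each class of genomic span, with the number of genes tested under each class. Boxes span the quartiles with the median as a line and whiskers reach the 5th and 95th percentiles; medians climb from -1.21 under 5 kb to 0.96 at 200 kb or more.

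Nuclear-retained noncoding RNAs were on the higher side. Of 11 tested list members 6 were higher and 0 lower, against 15.3% and 22.3% of all genes tested. Their median log2 fold was 0.91. Pvt1, a noncoding RNA next to Myc, had 333, 284 and 314 CPM in ribosome-poor sums and 105, 108 and 108 in ribosome-rich ones, a log2 fold of 1.35 ± 0.13 (SE; edgeR's quasi-likelihood test with Benjamini-Hochberg adjustment, adjusted p = 1.87e-08). Neat1, the scaffold of nuclear paraspeckles, had 373, 371 and 354 CPM against 179, 195 and 188, a log2 fold of 0.78. Airn and Kcnq1ot1, long noncoding RNAs of imprinted regions, had log2 folds of 0.91 and 0.83. No tag of these 4 genes overlapped between classes. The comparison called 37.6% of all genes tested in either direction, and how many of them had no overlap is not given here. Their spans ran from 20.8 kb for Neat1 to 340 kb for Pvt1. Pvt1, Airn and Kcnq1ot1 lay at the ribosome-rich level in the middle class, at 109, 226 and 163 CPM, while Neat1 had 318 CPM there. Against the middle class Neat1 did not pass, with a log2 fold of 0.16, and at 2000 to 6000 UMIs Airn did not, with 0.37. All 4 overlap other annotated genes, so reads of partners cannot be told apart from theirs where strand was not used.

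Gm42418, a gene that overlaps the ribosomal RNA repeat annotated on chromosome 17 (chr17:39846958-39848788, plus strand, GRCm38), was named after its values were seen. It had 18436, 12182 and 14560 CPM in ribosome-poor sums and 3253, 3138 and 2692 CPM in ribosome-rich sums. Its log2 fold was 2.12 ± 0.11 (SE; edgeR's quasi-likelihood test with Benjamini-Hochberg adjustment, adjusted p = 4.44e-13). The level was uneven between barcodes. The median was 6 UMIs per ribosome-poor barcode and 9 per ribosome-rich barcode, while the means were 26.3 and 13.2. In bins of ribosomal share it was highest from 5 to 7%, at 32359 and 31290 CPM, and 4735 CPM below 1%. In the annotation 2 other genes overlap it, so its reads are not certain to be its own.

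Genes known for introns that are spliced late and held in the nucleus did not move as a group. Of 20 such genes 5 were higher and 6 lower, against 15.3% and 22.3% of all genes tested. Their median log2 fold was -0.17. Luc7l2, a splicing factor gene of 58.1 kb, had 764, 770 and 718 CPM against 441, 450 and 453 (log2 fold 0.56). Ddx5, an RNA helicase gene of 8.83 kb, had 907, 793 and 750 CPM against 1400, 1316 and 1340 (log2 fold -0.91). Among the 73 tested genes annotated as sense intronic, which lie within introns of other genes, the median log2 fold was 1.11, and 8 were higher and 0 lower. Those 8 are 10.96%, below the 15.3% higher among all genes tested.

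The genes encoded in mitochondrial DNA were also higher in the main comparison. Of 13 genes 12 were higher and 0 lower, against 15.3% and 22.3% of all genes tested. Their median log2 fold was 0.53. The cytochrome oxidase subunit genes mt-Co1, mt-Co2 and mt-Co3 and the ATP synthase gene mt-Atp6 had log2 folds of 0.44, 0.55, 0.60 and 0.51. For mt-Co3 the levels were 5017, 5912 and 5263 CPM in ribosome-poor sums and 3061, 3179 and 3176 in ribosome-rich sums. With barcodes of at most 5% mitochondrial UMIs the list's median was 0.09 and none of those 4 genes passed, with mt-Co1 at -0.08. That bound acts on the same genes. In tag 1 it kept 183 of 219 ribosome-poor barcodes and 2435 of 2437 ribosome-rich ones. A fall of these folds was thus fixed in advance. Without tag 3 mt-Co1 did not pass either (log2 fold 0.45; edgeR's quasi-likelihood test with Benjamini-Hochberg adjustment, adjusted p = 0.0722). At 2000 to 6000 UMIs mt-Co1, mt-Co2 and mt-Atp6 had log2 folds of 0.37, 0.26 and 0.26 and did not pass. Within the ribosome-poor class the mitochondrial share and the long-gene share had a Spearman correlation of -0.05 over 707 barcodes.

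Messenger RNAs of the translation machinery were also far lower, beside the ribosomal protein genes that chose the class by symbol. They are close to those genes, and Fau was tested only because its symbol falls outside the rule. Their p-values are thus no independent support for the classes. The list held translation factors and other genes counted with the terminal oligopyrimidine (TOP) mRNAs, whose translation is coupled to that of ribosomal proteins. Of its 27 genes 26 were lower and 0 higher, against 22.3% and 15.3% of all genes tested. Their median log2 fold was -2.23. Tpt1, a translationally controlled tumour protein gene, had 790, 857 and 811 CPM in ribosome-poor sums. It had 6817, 6807 and 6907 CPM in ribosome-rich sums (log2 fold -3.25 ± 0.10, SE; edgeR's quasi-likelihood test with Benjamini-Hochberg adjustment, adjusted p = 4.37e-16). Fau, which encodes a ubiquitin-like protein fused to a ribosomal protein, Eef1a1, the main elongation factor, and Rack1, a ribosome-bound scaffold, had log2 folds of -3.12, -2.75 and -2.97. The middle class lay between, with 3937 CPM for Tpt1 and 3702 for Fau.

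A TOP start is a C at the start of transcription followed by a run of C or T, and the annotated starts were read to see how far the lower genes carry one. The RefSeq starts (GRCm38.p6) of 3 genes with such a run and of 3 genes without one are shown, and every gene shown was lower. Those with a run had log2 folds of -3.12 (Fau), -2.97 (Rack1) and -2.75 (Eef1a1). Those without one had -3.25 (Tpt1), -3.50 (Eef1b2) and -2.84 (Gzma). Tpt1 and Eef1b2 are on the TOP list although the starts shown for them have no run, while Gzma is not on it. The Tpt1 window lies inside the GENCODE gene, which begins at position 75845093, so it need not show that gene's first bases. Capitals mark the C at or near the annotated start and the C and T bases after it, and lowercase C or T bases may come directly before.
Fau, chr19:6057937-6057961, plus strand: gcccccacttCTTCCTCTTTCTTga
Rack1, chr11:48800350-48800374, plus strand: gccgctctttCTTTTTCTCCacagg
Eef1a1, chr9:78481710-78481734, minus strand: ctccgccctCTTCCCgagggtgggg
Tpt1, chr14:75845246-75845270, plus strand: cgctgacgacagttccgggggagcc
Eef1b2, chr1:63176821-63176845, plus strand: ctgcagttccgccggaagtagccga
Gzma, chr13:113100967-113100991, minus strand: aaacacagagatccctgctgattgg

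A C within 2 bases of the annotated start followed by at least 4 C or T bases on the transcribed strand was searched in the RefSeq promoter windows, which run from 250 bases before to 50 after each start. It was found for 11 of 20 TOP list genes with a promoter in the table (55.0%), against 10.6% of all 27025 promoters. It was found for 35.1% of 57 ribosomal protein genes, a class known for TOP starts, so the search does not find every such start. Among genes at least 2-fold lower it was found for 12.2%, among genes at least 2-fold higher for 11.8%, and among all tested genes for 12.1%. The shares of the lower and the higher genes lay close to each other and to that of all tested genes. A match is a description of letters, not of a working site.

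Nuclear genes of oxidative phosphorylation were lower almost throughout, in contrast to the mitochondrial ones of the same complexes. Of 81 tested genes 78 were lower and 0 higher, against 22.3% and 15.3% of all genes tested. Their median log2 fold was -2.59. Atp5e, an ATP synthase subunit gene, had 122, 161 and 121 CPM against 970, 1004 and 1026 (log2 fold -3.06). The cytochrome oxidase subunit genes Cox8a, Cox7c and Cox4i1 had log2 folds of -2.71, -2.64 and -2.37. Of 48 proteasome subunit genes 41 were lower and 1 higher, with a median of -1.63. Psmb8, an immunoproteasome subunit gene, and Psme1, a proteasome activator gene, had log2 folds of -2.56 and -2.43.

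All 30 tested genes of the actin cytoskeleton and other short cytosolic mRNAs were lower, against 22.3% of all genes tested. Their median log2 fold was -1.998. Tmsb4x, which encodes the actin-binding peptide thymosin beta 4, had 3822, 6888 and 5045 CPM against 19317, 20512 and 17988 (log2 fold -2.10). Tmsb10 and Cd52, a surface glycoprotein gene, had log2 folds of -3.19 and -2.98, and Actb, the beta actin gene, -1.76. For Tmsb4x the middle class, at a mean of 18453 CPM, lay at the ribosome-rich level. Of 16 heat shock and chaperone genes 13 were lower and 0 higher (median -1.31), among them Hsp90ab1 at -2.20 and Hspa8 at -2.0004.

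**Figure D4:**
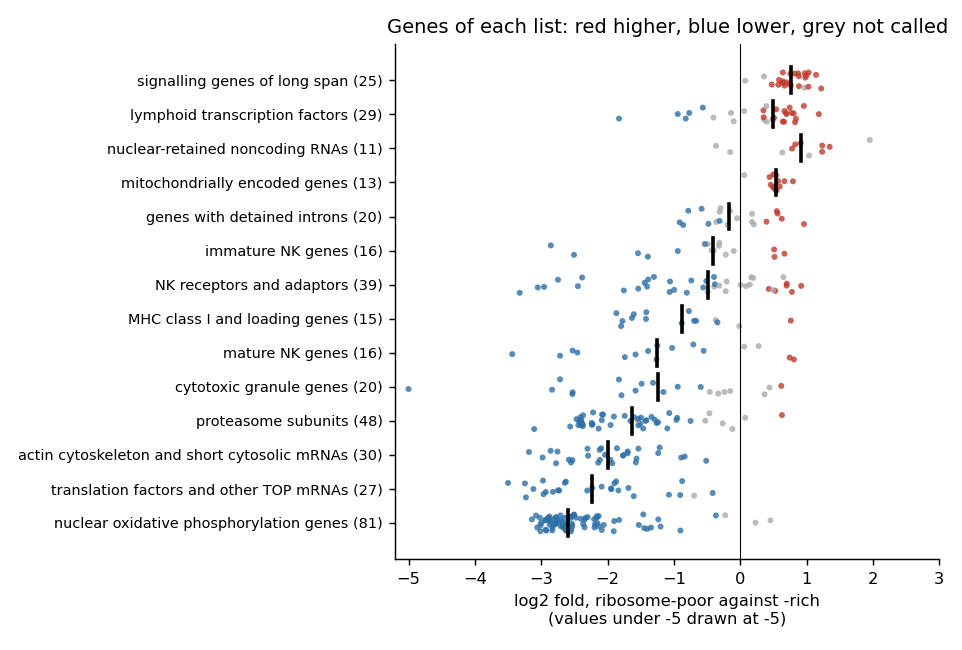
Log2 fold of every tested gene of 14 gene lists, with the number tested in brackets, 1 point per gene and a black bar at the list's median. Red points were called higher, blue points lower and grey points neither; 1 value below -5 is drawn at -5. The medians of lists of long genes, nuclear-retained RNAs and mitochondrially encoded genes lie to the right of 0 and those of short cytoplasmic mRNAs to the left.

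Effector genes of NK cells were more often lower than higher. Of 20 cytotoxic granule genes 13 were lower and 1 higher, against 22.3% and 15.3% of all genes tested. Their median log2 fold was -1.24. Gzma had 1272, 1875 and 1176 CPM in ribosome-poor sums against 9290, 9921 and 7629 in ribosome-rich sums. Its log2 fold was -2.84 ± 0.11 (SE; edgeR's quasi-likelihood test with Benjamini-Hochberg adjustment, adjusted p = 3.83e-15), and the middle class stood above both at 13458 CPM. Nkg7, a granule membrane gene, had a log2 fold of -2.53, Prf1, the perforin gene, -1.58, and Srgn, the gene of the granule proteoglycan serglycin, -0.60. Srgn did not pass against the middle class (-0.20) or at 2000 to 6000 UMIs (-0.25). Srgn spans 33.6 kb and the other 3 span 1.18 to 7.16 kb. Of 12 cytokine and chemokine genes 7 were lower and 1 higher (median -2.21), with Ccl5 at -2.79, Ccl4 at -1.92 and Xcl1 at -2.86.

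Receptors and adaptors were more often lower than higher, and single genes differed. Of 39 genes 21 were lower and 6 higher, against 22.3% and 15.3% of all genes tested. Their median log2 fold was -0.49. The adaptor gene Tyrobp, for DAP12, had 555, 534 and 540 CPM against 3310, 3335 and 2970 (log2 fold -2.75), and Fcer1g, the Fc receptor gamma chain gene, a log2 fold of -2.38. Klra4, a Ly49 receptor gene of 23.5 kb, had 1036, 1168 and 1179 CPM against 1673, 1695 and 1589 (log2 fold -0.74). Klrk1, of 13.5 kb, had 1356, 1685 and 1447 CPM against 1247, 1370 and 1309, a log2 fold of 0.01 ± 0.10 (SE; edgeR's quasi-likelihood test with Benjamini-Hochberg adjustment, adjusted p = 0.974). The tags' values overlapped between the classes for Klrk1 and were far apart for Tyrobp, although NKG2D can signal through DAP12. Among 15 MHC class I and antigen loading genes 12 were lower and 1 higher (median -0.88). B2m, H2-D1 and H2-K1, which encode the light chain and classical heavy chains, had log2 folds of -1.87, -1.78 and -1.42.

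**Figure D5:**
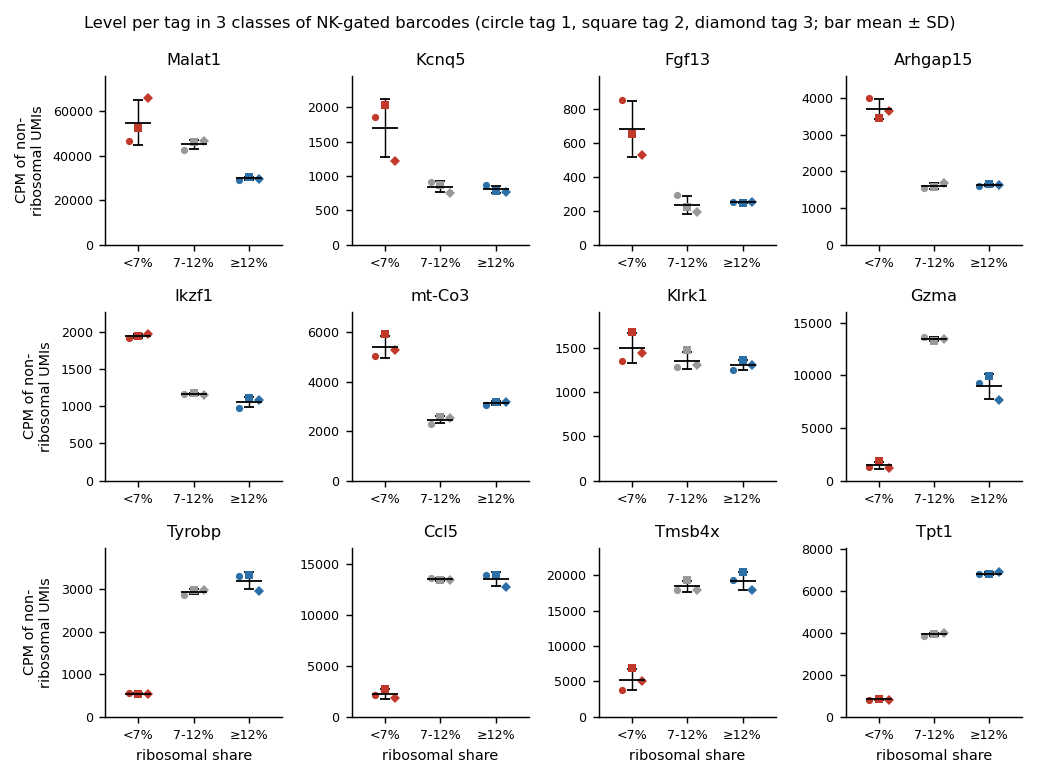
Level of 12 genes in CPM of non-ribosomal UMIs in the 3 classes of ribosomal share, 1 point per tag, with the mean and SD over 3 tags as black bars and each axis starting at 0. Arhgap15 and Ikzf1 were higher below 7%, Klrk1 values overlapped, and Gzma, Tyrobp, Ccl5, Tmsb4x and Tpt1 were lower below 7%.

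Genes of NK maturation were divided by class of list and by gene. Of 16 mature NK genes 12 were lower and 2 higher (median -1.26), and of 16 immature NK genes 6 were lower and 3 higher (median -0.42). Over all genes tested 22.3% were lower and 15.3% higher. Within the mature list Zeb2, a transcription factor gene of 134 kb needed for terminal maturation, had 1398, 1670 and 1808 CPM against 886, 859 and 803 (log2 fold 0.75). It did not pass against the middle class (0.01) or at 2000 to 6000 UMIs (0.19). Klf2, a short transcription factor gene that governs lymphocyte circulation, had 510, 516 and 350 CPM against 1623, 1359 and 1073 (log2 fold -1.74), and Irf8 -0.55. Within the immature list Tox, a gene of 305 kb for a factor of early NK development, had a log2 fold of 0.67. Against the middle class the immature list's median was 0.76 and the mature list's -1.76.

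Stage classes from surface genes could be compared only in the deeper ribosome-poor barcodes. After thinning to 2000 non-ribosomal UMIs, which 191 of 707 ribosome-poor and 7556 of 7914 ribosome-rich barcodes reached, 22.9% ± 7.58 of ribosome-poor barcodes had Itgam without Cd27, against 28.8% ± 0.23 (SD, n = 3 tags). Cd27 without Itgam was seen in 10.3% ± 4.31 against 14.1% ± 0.14. In B cell barcodes, which should lack Itgam, 1.39% had it alone and 5.57% had Cd27 alone. Unthinned, the shares were 25.02% and 9.29% in ribosome-poor and 34.3% and 18.9% in ribosome-rich barcodes. At this depth the differences were within 1 SD of the ribosome-poor tags. Thinned barcodes held a median of 1165 ± 19.9 genes in the ribosome-poor class and 1259 ± 4.36 in the ribosome-rich class.

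Regulators and signalling genes with long spans stood on the other side. Of 29 lymphoid transcription factor genes 17 were higher and 5 lower, against 15.3% and 22.3% of all genes tested. Their median log2 fold was 0.49. Ikzf1, the Ikaros gene, had 1914, 1940 and 1972 CPM against 977, 1108 and 1080 (log2 fold 0.70 ± 0.10, SE; edgeR's quasi-likelihood test with Benjamini-Hochberg adjustment, adjusted p = 6.37e-06). Runx1, a factor of blood cell development, and Stat4, which carries interleukin 12 signals, had log2 folds of 0.81 and 0.66. Of 25 signalling genes chosen for their long span 22 were higher and 0 lower, with a median of 0.76. Arhgap15, a Rac regulator gene of 647 kb, had 3986, 3458 and 3655 CPM against 1604, 1652 and 1627 (log2 fold 1.00). Dock2 and Dock10, which act in lymphocyte movement, had log2 folds of 0.87 and 0.75, and Ptprc, the CD45 gene, 0.47. At 2000 to 6000 UMIs Stat4 and Ptprc, at 0.37 and 0.32, did not pass, and without tag 3 Ptprc, at 0.45, did not.

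Of 20 tested potassium channel genes 4 were higher and 1 lower, against 15.3% and 22.3% of all genes tested. Their median log2 fold was 0.50, and most were not called. Kcnip3, a channel-interacting protein gene, had 156, 163 and 150 CPM against 92.6, 100.5 and 97.0 (log2 fold 0.51). It did not pass without tag 1 (0.47), without tag 2 (0.48), at 2000 to 6000 UMIs (0.50), with no low-count filter (0.37), at most 5% mitochondrial UMIs (0.38) or with all 3 gate genes (0.44). Kcnj8 (chr6:142564837-142571614, minus strand, GRCm38), the Kir6.1 gene of the study's title, had 15.9, 16.6 and 39.3 CPM in ribosome-poor sums against 49.9, 41.6 and 44.4 in ribosome-rich sums. Every tag was lower, with a log2 fold of -1.22 ± 0.30 (SE; edgeR's quasi-likelihood test with Benjamini-Hochberg adjustment, adjusted p = 0.00253). The middle class held more than both, with a mean of 110 CPM, and against it the log2 fold was -2.33. Kcnj8 did not pass without tag 1 (adjusted p = 0.0692), without tag 2 (adjusted p = 0.0526) or against barcodes at 15% or more (log2 fold -0.70, adjusted p = 0.105).

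Genes of activation, division and interferon response were more often lower than higher. Of 22 immediate early genes 14 were lower and 1 higher (median -0.59). Junb, an AP-1 subunit gene, had 730, 388 and 565 CPM against 2376, 1061 and 1064 (log2 fold -1.55), with tag 1 highest in both classes, and Btg1, an antiproliferative gene, had a log2 fold of -0.65. Of 21 cell cycle genes 15 were lower and 0 higher (median -1.68), among them H2afz, a histone variant gene, at -2.80 and Hmgb2 at -1.91. Of 22 interferon-stimulated genes 9 were lower and 0 higher (median -0.62), with Ly6e at -1.63. Over all genes tested 22.3% were lower and 15.3% higher. The cell cycle median was -0.52 against the middle class and -0.57 at matched depths of 2000 to 6000 UMIs.

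The 12 genes with the largest positive fold belonged mostly to other cell types, at levels carried by few barcodes. Retnlg, S100a8 and S100a9, which mark neutrophils, had log2 folds of 7.17, 5.35 and 5.20. Ppbp, Pf4, Clec1b and Gng11, of platelets, had 3.96, 3.50, 3.68 and 3.35. The globin genes Hba-a1 and Hbb-bt had 3.38 and 3.31, and the cytokine gene Il1b 3.38. Pakap, which encodes a kinase-anchoring protein, and App, the amyloid precursor gene, had 2.29 and 2.12. At least 3 UMIs of the neutrophil list were seen in 5 of 707 ribosome-poor barcodes, of the platelet list in 21, of the erythroid list in 35 and of the stromal list in 4. In ribosome-rich barcodes these counts were 5, 66, 1439 and 36 of 7914. The tags differed widely, as with Hba-a1 at 29.1, 113 and 1690 CPM and Ppbp at 42.3, 411 and 236 CPM. A further setting left out barcodes with at least 3 UMIs over the neutrophil, platelet, erythroid and stromal lists together. In tag 1 it kept 208 of 219 ribosome-poor and 1953 of 2437 ribosome-rich barcodes. The erythroid list holds Car2, at a mean of 347 CPM in ribosome-rich sums, so the barcodes left out need not be of other types. In this setting, called below without the 4 other types, Hba-a1 had a log2 fold of 0.40, Gng11 0.14 and Il1b -0.30. Ppbp, Clec1b, S100a8 and Hbb-bt did not pass in it. Without tag 3 Hbb-bt, at 1.39, did not pass. With at least 2 gate genes App had a log2 fold of 0.08 and with all 3 it had 0.38, and it passed in neither. Pakap had -0.34 and -0.91 in the same settings.

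The whole lists of those types had median log2 folds of 5.28 for 4 neutrophil genes and 3.65 for 4 platelet genes, all higher. The median was 1.67 for 4 stromal genes, all higher, and 3.04 for 8 erythroid genes, of which 5 were higher and 3 lower. With at least 2 gate genes the stromal and erythroid medians were -2.63 and -0.26, and with all 3 gate genes the stromal, erythroid and platelet medians were -6.04, -0.67 and -1.06. Over all genes tested 15.3% were higher and 22.3% lower, beside which the following small lists are to be read. T cell markers were lower in 4 of 6 tested genes and higher in 0, and B cell markers in 1 of 4 and 0. Dendritic cell markers were higher in 1 and lower in 3 of 6, monocyte or macrophage markers in 1 and 1 of 6, plasma cell markers in 0 and 2 of 4, and markers of type 1 innate lymphoid cells in 1 and 0 of 6. Without the barcodes of the 4 other types, 2181 genes were higher and 2908 lower, the median under 5 kb was -1.31 and that at 200 kb or more was 0.93.

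The genes with the largest negative fold were short. Bola2, an iron-sulfur assembly gene, had 7.93, 14.97 and 10.7 CPM against 132, 139 and 173, the lowest log2 fold of those named at -3.80. Eef1b2 and Eif3i, of translation, had -3.50 and -3.41, Nme2, a nucleoside diphosphate kinase gene, -3.40, and Snrpf, a spliceosome gene, -3.39. Smim11 had -3.38, Gm11808 -3.34, Gm2000 -3.32, and Mrpl34, of the mitochondrial ribosome, -3.28. Trbc2, a T cell receptor constant gene transcribed in NK cells, had 34.4, 31.6 and 32.2 CPM against 284, 258 and 304 (log2 fold -3.27). With Tpt1, described above, these genes spanned 0.445 to 11.8 kb. Gm2000 and Gm11808 are named as predicted genes and may share reads with near-identical copies.

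Genes were also listed by whether they stayed higher across settings, a choice made on these values. Of 240 genes at least 2-fold higher with a mean of at least 50 CPM, 173 were also higher by the test in each of 5 other settings, chosen after the data were seen or from the listed alternatives. These settings required all 3 gate genes, left out barcodes of the 4 other types, used the middle class in place of the ribosome-rich class, or held depth to 500 to 2000 or 2000 to 6000 UMIs. Since the settings chose them, the 173 genes are a description. They had a median span of 181 kb, against 40.0 kb for all 4111 tested genes at that level. After Gm42418, the largest folds among them were those of Ube2e2 (1.94), Taco1 (1.70), Vegfc (1.54), Atxn1 (1.46), Btbd11 (1.43), Zfp407 (1.39) and Lncpint (1.36). Atxn1, a gene of 415 kb, had 418, 531 and 407 CPM against 134, 162 and 139. Taco1, with a short span of 7.55 kb, had 60.8, 93.1 and 85.8 CPM against 19.95, 23.6 and 20.9. Of 994 genes at least 2-fold lower at the same level, 916 were also lower in each of the 5 settings, and their median span was 9.20 kb.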

How the data were processed

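The authors deposited a matrix of UMI counts for 32285 genes and 3 lipid tags in 16384 barcodes. Per the file headers, Cell Ranger 7.0.0 made it. The build mm10 and the tool Seurat appear in the submitters' processing notes. The gene annotation, and the treatment of intronic reads, which bears on every value by gene span, were not given in the sources used here. Ribosomal protein genes were taken by symbol (101 symbols, of which 10 are Rps6k kinases, with 77 in a stricter list). Counts were summed per tag and class over barcodes, without the ribosomal genes, and tested with edgeR 4.0.16 in R 4.3.3 (TMM factors, low-count filter, quasi-likelihood test, tag as block, Benjamini-Hochberg over 13196 genes). Genes of the rule were described and not tested. DESeq2 1.42.0 was an alternative. In simulated counts for this comparison, over 12894 genes, 78% of 2-fold and 99% of 4-fold changes were recovered, and 3.28% of calls were false. The simulation gave every gene the same dispersion, had no tag effects and changed 100 genes at each fold. In the data 37.6% of genes were called and some varied widely between tags, so these rates need not hold for them. Spans, exon numbers and transcript lengths came from GENCODE M21 on GRCm38, which held 32235 of the gene IDs, and starts from RefSeq GRCm38.p6.

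The members and the gene lists were chosen with earlier results of these data known. Genes named were the rule's own genes, the 12 largest folds each way among called genes with at least 50 CPM and the same direction under 3 of 3 tags, up to 4 of the most abundant tested members of each list, and Kcnj8. Alternatives changed the scaling, filter, block, class bounds, gate, depth and tags. Tag numbers stand for the barcode's own lipid tag. A gene that this rule also named is not reported here.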

Additional observations from a re-analysis of the deposited data

Results flagged for a closer look

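Barcodes with no tag over its bound entered no comparison, and they too held ribosome-poor NK barcodes. Of 418 such barcodes that passed the gene, mitochondrial and NK gates, 49 were ribosome-poor, or 11.7% (exact 95% binomial interval 8.80 to 15.2%), against 7.42% (6.90 to 7.96%) of the 9529 barcodes with exactly 1 tag. The share was 2.24% among 2762 gated barcodes with several tags, whose median depth was 7739 UMIs (7738.5 before rounding) against 4063 with 1 tag and 4008 with none. Among 1348 barcodes with 1 tag but no gate gene UMI it was 13.1%. The difference between these groups was not tested, because barcodes without a tag cannot be assigned to a replicate.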

How the results depend on the processing

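The counts of genes higher and lower (2020 and 2946, and 647 and 2302 at least 2-fold) were recomputed in 21 other settings, 3 of them chosen after the data were seen. Against the middle class 1783 genes were lower, 423 were at least 2-fold higher and 1312 at least 2-fold lower. At 2000 to 6000 UMIs 1223 were higher. At 500 to 2000 UMIs 1573 were lower, 1346 of them at least 2-fold. With all 3 gate genes 1104 were higher and 247 at least 2-fold, and without TMM factors 1154 were at least 2-fold higher. Without the replicate block 2312 were higher and 3002 lower, and pairing by tag comes from the barcodes' own tags. Leaving out 1 tag each gave 1393 to 1782 higher, 2268 to 2560 lower, 501 to 587 and 1903 to 2110 at least 2-fold, and a ribosome-poor share of 6.54 to 8.20%. With at least 2 gate genes that share was 5.50%.

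Over the named genes and the other settings, 1904 values kept their direction and call (for Klrk1, the absence of a call), 41 kept only the direction and 12 turned. The neutrophil genes dropped out of some settings for low counts. Directions turned in these cases, and the cause was not tested. With all 3 gate genes the log2 fold was -1.50 for Ppbp, -2.51 for Clec1b, -0.63 for Pf4, -2.79 for Hba-a1, -0.032 for Il1b, -0.72 for Gng11 and -0.91 for Pakap, and the list medians were -0.67 (erythroid), -1.06 (platelet) and -6.04 (stromal). With at least 2 gate genes Hba-a1 and the erythroid median were -0.26, Pakap -0.34 and the stromal median -2.63. Without barcodes of other types Il1b was -0.30, and at most 5% mitochondrial UMIs gave -0.078 for mt-Co1. Against the middle class Pakap was -0.0045, and the medians were 0.76 (immature NK), 0.017 (detained introns), 0.10 (apoptosis) and -0.27 (stromal). At 500 to 2000 UMIs they were 0.68 (immature NK), 0.64 (apoptosis) and -0.12 (erythroid). The detained intron median was 0.012 and the apoptosis median 0.00952 without TMM factors. The apoptosis median was also 0.16 with a bound of 8%, 0.063 with several-tag barcodes added and ran from -0.29 to 0.021 as each tag was left out. The potassium channel median was -1.44 with no low-count filter.

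Depth limits the ribosome-poor class, with 1405 UMIs per barcode, and the tags are 3 parts of 1 library.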

Other observations

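Among the most abundant genes of the apoptosis list, Bcl2 and Mcl1 moved in opposite directions. Bcl2, an inhibitor of apoptosis encoded by a gene of 176 kb, had 1612, 1326 and 1222 CPM in ribosome-poor sums against 535, 640 and 588 in ribosome-rich sums, a log2 fold of 1.05 ± 0.12 (SE; edgeR's quasi-likelihood test with Benjamini-Hochberg adjustment, adjusted p = 1.61e-07). Mcl1, an inhibitor of apoptosis encoded by a gene of 4.39 kb, had 206, 173 and 207 CPM against 337, 327 and 334, a log2 fold of -0.97 (edgeR's quasi-likelihood test with Benjamini-Hochberg adjustment, adjusted p = 3.23e-06). Neither gene's tags overlapped between classes, and how many of all genes tested had no overlap is not given here. Birc6, a gene of 175 kb, and Bcl2l11, a gene of 36.5 kb, were both higher, with log2 folds of 0.49 and 0.48. Of the 17 apoptosis genes on the list 4 were higher and 6 lower, with a median log2 fold of -0.18, against 15.3% and 22.3% of all genes tested.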
